A study of Arabidopsis thaliana with 11 samples.

Results

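The WRKY transcription factors of Arabidopsis thaliana were followed through floral induction in 11 RNA-seq libraries. Members were the genes of the deposited expression table that carry a WRKY name followed by a number among their aliases, and 62 of the 20971 genes in the table met this rule. Of these, 53 had at least 1 FPKM (the fragment count of a transcript scaled to its length and to the size of the library) in at least 2 libraries and were tested, among 19278 genes tested in all. The other 9 members are described by their values alone.

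WRKY proteins are plant transcription factors named after a conserved WRKY peptide in their DNA-binding domain, which also holds a zinc finger. They bind the W box, a DNA element with the core TTGAC, and many WRKY genes have W boxes in their own promoters and are controlled by other members of the family. The family is best known for its part in defence, wounding, abiotic stress and leaf senescence, and a smaller number of members act in trichome, seed coat, stem and flowering-time control. Members are divided by their domains into group I, with a pair of WRKY domains, group II, with subgroups a to e, and group III, whose zinc finger is of a different type.

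All libraries came from inflorescences of plants in the Landsberg ecotype with the genotype pAP1:AP1-GR ap1-1 cal-1. In this line the floral regulator APETALA1 is fused to the hormone-binding part of the glucocorticoid receptor and expressed from the AP1 promoter in plants mutant for ap1 and cal, whose inflorescences keep making meristems until dexamethasone lets the fusion protein act. Inflorescences were taken before dexamethasone (day 0, 3 libraries) and after daily dexamethasone at day 2 (2 libraries), day 4 (3 libraries) and day 8 (3 libraries), each library from pooled inflorescences. No untreated library of a later day was analysed here, so time under treatment, plant age and floral stage cannot be told apart. Of 8 floral markers, 6 rose at day 8 against day 0, among them the floral organ identity gene AP3 with a log2 change of 7.19 ± 0.11 (SE), and 1, the meristem gene STM, fell by 1.71 ± 0.14. In whole inflorescences, fewer cells of a type and less RNA per cell cannot be told apart.

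The stretch of 300 bases before the annotated gene start is shown for 5 WRKY genes that rose, chosen after their values were seen to show stretches with 3, 2 and 0 W boxes. W boxes (TTGACC or TTGACT, searched on both strands) are in capitals, and AGTCAA and GGTCAA are the same motifs on the other strand. Positions are those of the RefSeq annotation of TAIR10.1, and each sequence reads 5′ to 3′ on the strand of the gene.
WRKY33 (chr2:16107935-16108234, plus strand): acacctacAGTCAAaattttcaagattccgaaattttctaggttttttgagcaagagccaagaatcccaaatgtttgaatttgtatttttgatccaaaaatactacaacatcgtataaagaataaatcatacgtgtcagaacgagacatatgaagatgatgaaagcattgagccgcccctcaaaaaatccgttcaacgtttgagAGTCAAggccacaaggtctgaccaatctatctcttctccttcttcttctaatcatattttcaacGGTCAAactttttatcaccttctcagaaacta
WRKY30 (chr5:8154711-8155010, minus strand): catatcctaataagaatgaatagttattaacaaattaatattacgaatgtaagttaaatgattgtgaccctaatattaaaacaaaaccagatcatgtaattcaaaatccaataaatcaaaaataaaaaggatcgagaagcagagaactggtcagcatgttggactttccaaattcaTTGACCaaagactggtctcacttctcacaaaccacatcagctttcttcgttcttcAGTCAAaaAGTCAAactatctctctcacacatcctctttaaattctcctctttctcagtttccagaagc
WRKY15 (chr2:9924586-9924885, plus strand): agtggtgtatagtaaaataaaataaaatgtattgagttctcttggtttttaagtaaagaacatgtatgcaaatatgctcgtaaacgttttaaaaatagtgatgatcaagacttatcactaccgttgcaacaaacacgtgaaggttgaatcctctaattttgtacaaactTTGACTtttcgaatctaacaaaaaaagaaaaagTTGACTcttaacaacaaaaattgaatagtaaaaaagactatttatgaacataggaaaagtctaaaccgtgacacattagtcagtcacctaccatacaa
WRKY53 (chr4:12393983-12394282, minus strand): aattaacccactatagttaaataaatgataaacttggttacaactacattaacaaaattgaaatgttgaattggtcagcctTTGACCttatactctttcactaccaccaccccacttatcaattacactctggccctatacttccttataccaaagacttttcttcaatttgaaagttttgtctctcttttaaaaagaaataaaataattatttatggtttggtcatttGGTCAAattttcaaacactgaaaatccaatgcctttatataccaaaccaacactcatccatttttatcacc
WRKY40 (chr1:30383261-30383560, plus strand): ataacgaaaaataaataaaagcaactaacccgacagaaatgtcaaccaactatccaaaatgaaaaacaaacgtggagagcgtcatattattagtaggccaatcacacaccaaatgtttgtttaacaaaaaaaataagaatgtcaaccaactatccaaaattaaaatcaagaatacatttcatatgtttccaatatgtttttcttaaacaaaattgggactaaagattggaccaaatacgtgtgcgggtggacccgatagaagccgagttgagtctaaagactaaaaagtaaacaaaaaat
WRKY33 and WRKY30 had 3 W boxes each, WRKY15 and WRKY53 had 2 each, and WRKY40 had 0. The core TTGAC followed by A or G was not counted, and the WRKY40 stretch holds TTGACA on the other strand (tgtcaa). A match of these letters is a description of the sequence and not a measured binding site.

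The total transcript level of the family was highest at day 8. Summed over the 62 members, the family reached 665, 666 and 690 FPKM in the day 0 libraries, 763 and 749 FPKM at day 2, 794, 775 and 778 FPKM at day 4, and 2884, 3235 and 1700 FPKM at day 8. Every day 8 library was above every earlier library. In the day 8 libraries, 4 members (WRKY33, WRKY40, WRKY15 and WRKY18) made up 53.0%, 48.2% and 31.7% of the sum, against 5.23%, 6.02% and 5.62% in the day 0 libraries. The map of transcript levels shows the members grouped by their course.

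**Figure D1:**
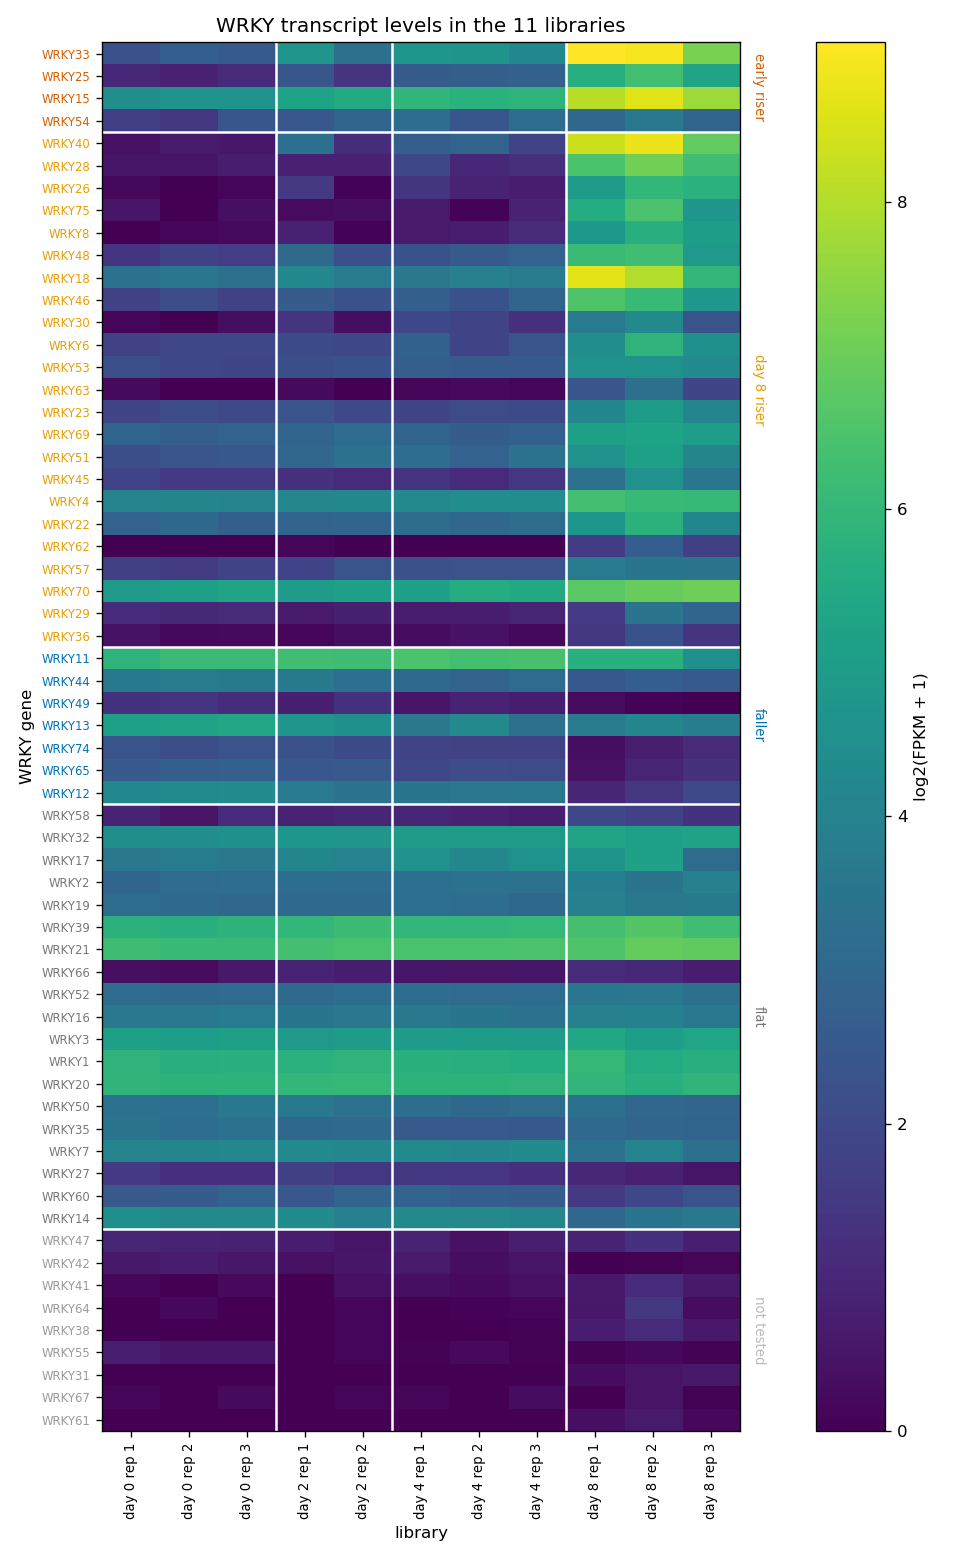
Transcript levels of the 62 WRKY genes (rows) in the 11 libraries (columns), as log2(FPKM + 1). Rows are grouped as early risers (4), day 8 risers (23), fallers (7), flat members (19) and members that were not tested (9). The brightest cells lie in the 3 day 8 columns, where WRKY33 reached 525 FPKM in replicate 1.

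A gene was called changed between days when its Benjamini-Hochberg adjusted p in limma was under 0.05 over all genes tested and its level of FPKM + 1 differed at least 2-fold. Over the 4 days together, 34 of the 53 members (64.2%) passed the F test with this fold between the highest and the lowest day, against 32.8% of all genes. At day 8 against day 0, 27 members (50.9%) rose and 6 (11.3%) fell, against 14.2% and 15.2% of all genes. At day 8 against day 4, 26 members (49.1%) rose and 4 (7.55%) fell, against 12.5% and 11% of all genes. Members had a median log2 change of 1.32 at day 8 against day 0, and of 0.85 at day 8 against day 4, against -0.19 for all genes in both comparisons.

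Of the 53 members tested, 7 (WRKY8, WRKY36, WRKY58, WRKY62, WRKY63, WRKY66 and WRKY75) reached the minimum of 1 FPKM in 2 libraries only through day 8 and so had to be higher there. With the minimum set on the libraries of days 0, 2 and 4 alone, a setting chosen after the values were seen, 46 members were tested, and 22 of them (47.8%) rose at day 8 against day 0, against 11.9% of all genes tested in that way. When the libraries were rescaled by median ratios, the median change of all genes at day 8 against day 0 moved to -0.01 and the share of rises among all called genes was 59.8%, against 48.3% in the values as deposited. The members then split into 27 rises and 5 falls at day 8 against day 0. At day 8 against day 4 the share of rises among all called genes was 65.6% after rescaling, against 53.2% as deposited, and the members split into 26 rises and 2 falls.

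Within the family, 4 members were early risers, that is, higher at day 4 than at day 0, and 23 were called up only at day 8. Early risers were 7.55% of the members tested and 1.64% of all genes, and day 8 risers were 43.4% of the members and 13.5% of all genes. Fallers numbered 7 (13.2% of the members, 16.2% of all genes) and flat members, called in none of the 5 comparisons, 19 (35.8% of the members, 68.6% of all genes). No member was called both up and down.

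At day 2, no member passed the test. At day 2 against day 0, limma called 0 members up (0.244% of all genes) and 0 down (0.0934% of all genes), while 14 members (26.4%) had an unadjusted p under 0.05, against 11.3% of all genes. The counts were also 0 under every other setting that kept all libraries, and without replicate 3 of day 8 WRKY33 was called up. At day 4 against day 2, limma called 0 members up (0.301% of all genes) and 0 down (0.0674% of all genes), while 9 members (17%) had an unadjusted p under 0.05, against 13.4% of all genes.

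At day 4 against day 0, 4 members (7.55%) rose, against 1.59% of all genes, and 1 member (1.89%) fell, against 0.617% of all genes. WRKY15, a subgroup IId member with a calmodulin-binding region that is known for salt and oxidative stress responses, had 21.2, 23.3 and 24.2 FPKM at day 0, 36.6 and 45.3 FPKM at day 2, 53.7 to 60.9 FPKM at day 4, and 271, 386 and 212 FPKM at day 8. Its levels at the 4 days did not overlap and were ordered by day. Its log2 change was 1.30 ± 0.18 (SE) at day 4 against day 0 (adjusted p = 0.00142) and 3.56 ± 0.18 at day 8 against day 0. The other early members were below WRKY15 in level in every library up to day 4.

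WRKY25, a group I member known for heat and salt responses, had 0.996, 0.786 and 1.13 FPKM at day 0, 4.41 and 1.64 FPKM at day 2, 5.13, 5.59 and 6.0 FPKM at day 4, and 49.9, 77.3 and 37.8 FPKM at day 8. Again the libraries of the 4 days did not overlap. The rise at day 4 against day 0 was 1.74 ± 0.28 on the log2 scale (adjusted p = 0.00326), or 3.34-fold in FPKM + 1. At day 8 against day 0 it was 4.77 ± 0.28. The calls of WRKY15 and WRKY25 at day 4 held when any library was left out.

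WRKY33, a group I member that acts downstream of the MAP kinases MPK3 and MPK6 and drives camalexin synthesis against necrotrophic fungi, had 3.82, 5.45 and 4.95 FPKM at day 0, 25.4 and 9.15 FPKM at day 2, 25.7, 24.5 and 17.8 FPKM at day 4, and 525, 486 and 150 FPKM at day 8. It was the member with the highest level in 2 of the 3 day 8 libraries. The day 2 libraries differed widely, and both lay above all day 0 libraries. WRKY33 rose by 2.04 ± 0.45 on the log2 scale at day 4 against day 0 (adjusted p = 0.0188), and this call was lost without any 1 of 5 libraries (replicates 1, 2 and 3 of day 0, replicates 1 and 2 of day 4; highest adjusted p = 0.0869). The rise at day 8 against day 0 was 5.89 ± 0.45, a 59.3-fold difference in FPKM + 1.

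WRKY54, a group III member known with WRKY70 as a regulator of salicylic acid responses and senescence, had 2.23, 1.73 and 4.37 FPKM at day 0, 4.42 and 6.58 FPKM at day 2, 8.67, 4.38 and 8.33 FPKM at day 4, and 7.07, 11.2 and 6.51 FPKM at day 8. Its day 2, day 4 and day 8 libraries overlapped one another. The log2 change was 1.12 ± 0.30 at day 4 against day 0 (adjusted p = 0.0448), 1.32 ± 0.30 at day 8 against day 0, and 0.20 ± 0.30 at day 8 against day 4 (adjusted p = 0.564). Its call at day 4 was lost without any 1 of 6 libraries (highest adjusted p = 0.165), and with the replicate number as a block (adjusted p = 0.0722).

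A pair of further members had large changes at day 4 that missed the test. WRKY40 changed by 1.93 ± 0.56 on the log2 scale at day 4 against day 0 (adjusted p = 0.0569) and WRKY30 by 1.51 ± 0.44 (adjusted p = 0.0568). Both were called when libraries were weighted by the spread of their day or when the fit held only the 2 days compared. At day 2, replicate 1 was above replicate 2 for both, with 8.84 and 1.197 FPKM for WRKY40 and 1.57 and 0.265 FPKM for WRKY30.

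The largest rise at day 8 was that of WRKY40 in subgroup IIa. The members of this subgroup, WRKY18, WRKY40 and WRKY60, bind one another and are known as repressors of early defence and abscisic acid responses. WRKY40 had 0.323, 0.590 and 0.515 FPKM at day 0, 8.84 and 1.197 FPKM at day 2, 5.68, 6.27 and 2.596 FPKM at day 4, and 329, 432 and 115 FPKM at day 8. All day 8 libraries lay far above all others, with the lowest in replicate 3. The log2 change at day 8 against day 0 was 7.44 ± 0.56 (adjusted p = 6.47e-07), a 173-fold difference in FPKM + 1 and the largest of the family. Against day 4 it was 5.51 ± 0.56.

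WRKY18 had 9.40, 10.8 and 9.20 FPKM at day 0, 17.5 and 11.8 FPKM at day 2, 10.96, 14.5 and 12.6 FPKM at day 4, and 405, 256 and 62.9 FPKM at day 8. Levels up to day 4 stayed within a narrow range, and the day 8 libraries spread widely without reaching down to it. The rise at day 8 against day 0 was 4.13 ± 0.51 on the log2 scale (adjusted p = 2.4e-05). WRKY60, the third partner, had 4.74, 5.20 and 6.29 FPKM at day 0, 4.48 and 6.77 FPKM at day 2, 6.43, 5.67 and 5.24 FPKM at day 4, and 1.81, 2.92 and 3.97 FPKM at day 8. It was lower in all 3 day 8 libraries than in any earlier one, by 0.75 ± 0.21 on the log2 scale at day 8 against day 0 (adjusted p = 0.00698), short of the 2-fold minimum.

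**Figure D2:**
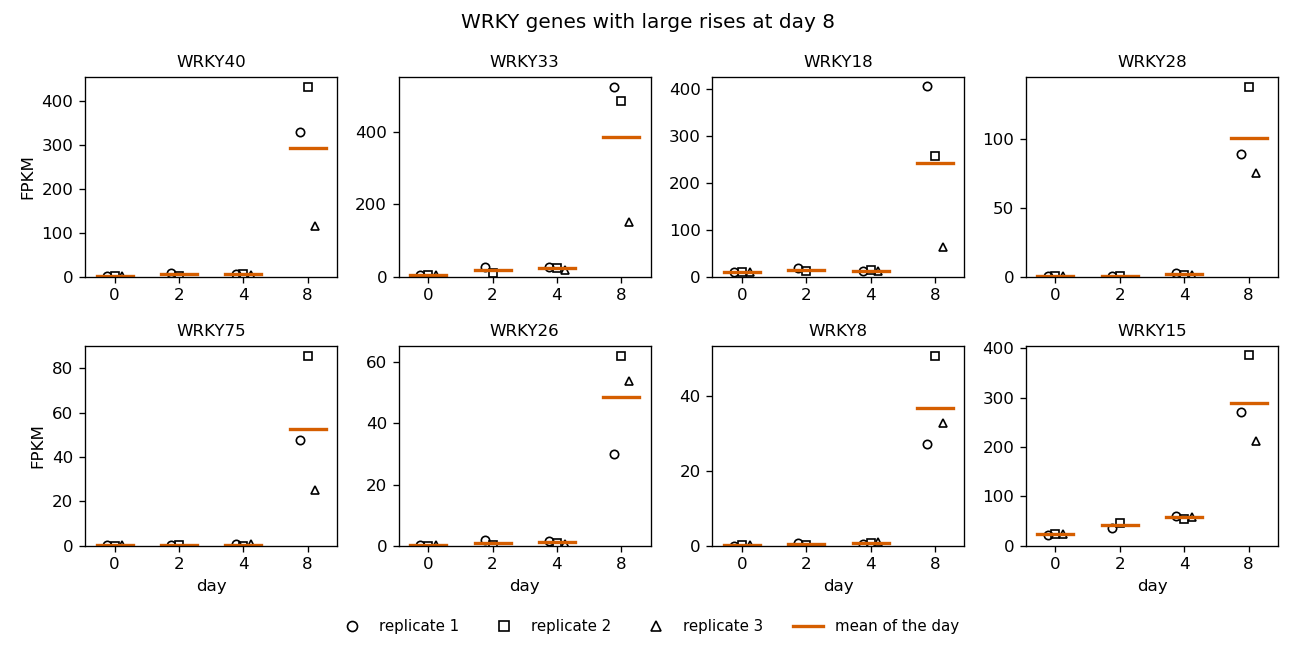
FPKM of 8 WRKY genes with large rises, by day of dexamethasone treatment. Points are single libraries, with a symbol for each replicate number, and orange bars are the means of each day. In each panel the 3 day 8 libraries lie above all earlier ones, and for WRKY40, WRKY33, WRKY18, WRKY28, WRKY75 and WRKY15 replicate 3 is the lowest at day 8.

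Several members of subgroup IIc had large rises. WRKY28, an activator of the salicylic acid synthesis gene ICS1, had 0.423, 0.423 and 0.666 FPKM at day 0, 0.789 and 0.768 FPKM at day 2, 2.92, 1.03 and 1.36 FPKM at day 4, and 89.1, 138 and 75.2 FPKM at day 8. The change at day 8 against day 0 was 6.04 ± 0.26 on the log2 scale, and 5.21 ± 0.26 at day 8 against day 4. ICS1 itself had 4.86, 5.25 and 4.20 FPKM at day 8 and 9.99, 9.64 and 8.01 FPKM at day 0, with a log2 change of -0.82 ± 0.12 that did not reach 2-fold.

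WRKY75, known for phosphate starvation responses and leaf senescence, had 47.6, 85.6 and 24.9 FPKM at day 8, and between 0.00909 and 0.849 FPKM in the 8 earlier libraries (log2 change 5.26 ± 0.37 at day 8 against day 0, and 5.04 ± 0.37 against day 4). WRKY8, known for salt and virus responses, had 27.2, 50.9 and 32.9 FPKM at day 8, and between 0.00909 and 1.09 FPKM in the 8 earlier libraries (5.07 ± 0.25 against day 0, and 4.38 ± 0.25 against day 4). Both were thus nearly absent up to day 4. For such genes the size of the change on the log2(FPKM + 1) scale is set largely by the added 1 and by the level at day 8.

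WRKY48, a repressor of basal defence, had 1.65, 2.34 and 2.11 FPKM at day 0, 7.67 and 3.66 FPKM at day 2, 3.85, 4.69 and 6.19 FPKM at day 4, and 69.8, 76.8 and 28.1 FPKM at day 8. All 8 later libraries were above the day 0 libraries, although only the change at day 8 against day 0 (4.17 ± 0.35) and against day 4 (3.22 ± 0.35) passed the test. WRKY26, the group I relative of WRKY25 with a part in heat responses, had 30.1, 62.1 and 53.7 FPKM at day 8, and between 0.00909 and 1.82 FPKM in the 8 earlier libraries (5.46 ± 0.35 against day 0, and 4.57 ± 0.35 against day 4). Unlike most risers, WRKY26 had its lowest day 8 value in replicate 1.

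In group III, WRKY46, a partner of WRKY54 and WRKY70 in salicylic acid and drought responses, had 2.34, 3.40 and 2.42 FPKM at day 0, 4.998 and 3.89 FPKM at day 2, 5.48, 3.83 and 6.53 FPKM at day 4, and 93.4, 67.2 and 27.5 FPKM at day 8 (3.94 ± 0.36 at day 8 against day 0). WRKY30, known for oxidative stress responses, had 0.102, 0.00909 and 0.275 FPKM at day 0, 2.81, 2.61 and 1.39 FPKM at day 4, and 12.5, 18.9 and 4.01 FPKM at day 8. Its 3 day 4 libraries lay between those of day 0 and day 8 with no overlap. The change at day 8 against day 0 was 3.30 ± 0.44.

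The remaining 15 members that rose at day 8 against day 0 had log2 changes between 1.32 ± 0.30 for WRKY54 and 3.10 ± 0.34 for WRKY6, a regulator of senescence and phosphate uptake. They also included the senescence regulators WRKY53 (2.50 ± 0.12) and WRKY45 (2.23 ± 0.27), the MAP kinase targets WRKY22 (2.05 ± 0.31) and WRKY29 (1.58 ± 0.36), the abscisic acid regulator WRKY63 (2.45 ± 0.30), the drought regulator WRKY57 (1.85 ± 0.14), and WRKY23 (2.43 ± 0.21), WRKY69 (2.31 ± 0.11), WRKY51 (2.29 ± 0.24), WRKY4 (2.11 ± 0.09), WRKY62 (1.98 ± 0.26), WRKY70 (1.79 ± 0.13) and WRKY36 (1.43 ± 0.23). WRKY62 was listed at 0 in all 3 day 4 libraries and at the lowest value of the library in all 3 day 0 libraries. Of the 27 members up at day 8 against day 0, 26 were also up at day 8 against day 4, and WRKY54 was the exception.

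Among these, WRKY53, WRKY69, WRKY4, WRKY57 and WRKY70 had tight replicates. WRKY53, whose upstream stretch held 2 W boxes, had 22.7, 23.1 and 19.5 FPKM at day 8, against 3.65, 2.76 and 2.72 FPKM at day 0. It was also 0.65 ± 0.12 higher on the log2 scale at day 4 than at day 0 (adjusted p = 0.00738), below 2-fold. WRKY70 had the highest day 0 level of the risers, with 28.5, 34.4 and 38.2 FPKM, and reached 104, 121 and 131 FPKM at day 8.

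Rises at day 8 occurred in every subgroup. At day 8 against day 0, 2 of 3 members tested rose in subgroup IIa, 2 of 2 in IIb, 8 of 12 in IIc and 7 of 9 in group III, while 4 of 12 rose in group I, 1 of 7 in IId and 3 of 8 in IIe, against 14.2% of all genes. Only 2 of the 6 IIb members and 9 of the 14 group III members in the table passed the minimum level and were tested, and WRKY58 of group I, WRKY36 of IIb, WRKY8 and WRKY75 of IIc, and WRKY62, WRKY63 and WRKY66 of group III passed only through day 8. With the minimum set on days 0, 2 and 4, the counts were 4 of 11 in group I, 1 of 1 in IIb, 6 of 10 in IIc and 5 of 6 in group III, where 11.9% of all genes rose. Over the members first tested, the median log2 change was 4.13 in IIa, 2.26 in IIb, 2.26 in IIc, 1.98 in group III, 0.69 in group I, 0.60 in IId and -0.08 in IIe. Falls were 3 in IIc, 1 each in groups I, IId and IIe, and 0 in IIa, IIb and group III, against 15.2% of all genes. Differences between subgroups were not tested.

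**Figure D3:**
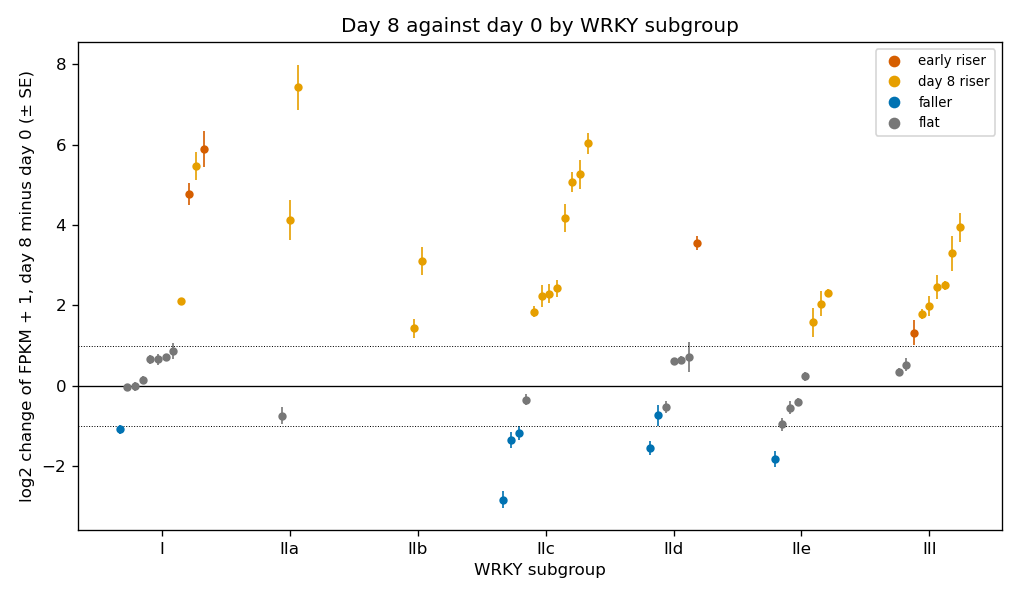
Log2 change of FPKM + 1 at day 8 against day 0 for the 53 WRKY genes tested, by subgroup. Points are genes, bars are standard errors of the limma fit, and colours give the course of each gene, with dotted lines at a 2-fold change. Group III has 7 of 9 members called up and 0 called down, and subgroup IIc holds both the second-highest rise (6.04) and the lowest value (-2.84).

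Among the members that fell, WRKY12 and WRKY13, a related pair of subgroup IIc that act in stem cell wall formation and have opposite effects on flowering time, differed in timing. WRKY12 had 17.7, 18.8 and 19.7 FPKM at day 0, 12.3 and 9.96 FPKM at day 2, 10.3, 11.1 and 11.2 FPKM at day 4, and 0.945, 1.72 and 2.97 FPKM at day 8. Levels at days 2 and 4 overlapped and lay between those of days 0 and 8. The change was -2.84 ± 0.21 on the log2 scale at day 8 against day 0 (adjusted p = 4.96e-07) and -2.10 ± 0.21 at day 8 against day 4, and at day 4 against day 0 it was -0.74 ± 0.21 (adjusted p = 0.0503).

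WRKY13 had 33.9, 36.0 and 38.8 FPKM at day 0, 25.3 and 22.05 FPKM at day 2, 11.1, 18.1 and 9.13 FPKM at day 4, and 11.8, 16.6 and 12.9 FPKM at day 8. It was the 1 member called down by day 4 (-1.49 ± 0.20 against day 0, adjusted p = 0.00141), a call that held without any single library. Its day 4 and day 8 libraries overlapped, with a change of 0.14 ± 0.20 between them (adjusted p = 0.553).

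WRKY44, also called TTG2, acts with the trichome regulators in trichome and seed coat development. It had 11.6, 11.99 and 11.6 FPKM at day 0, 11.7 and 8.81 FPKM at day 2, 7.69, 6.29 and 7.85 FPKM at day 4, and 4.64, 5.47 and 4.87 FPKM at day 8. The change was -1.09 ± 0.12 on the log2 scale at day 8 against day 0, and it missed 2-fold when the libraries were rescaled by median ratios. At day 4 against day 0 it was -0.63 ± 0.12 (adjusted p = 0.00998), below 2-fold.

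WRKY65 had 4.997, 5.72 and 5.83 FPKM at day 0 and 0.338, 0.899 and 1.44 FPKM at day 8, a change of -1.82 ± 0.19, with days 2 and 4 between them. WRKY74 of subgroup IId had 0.274, 0.682 and 1.10 FPKM at day 8, against 4.04, 3.49 and 4.02 FPKM at day 0 (-1.55 ± 0.17). At day 8 against day 4, the change was -1.16 ± 0.19 for WRKY65 and -1.09 ± 0.17 for WRKY74, and both missed 2-fold without replicate 1 of day 8 (-0.94 and -0.90). WRKY49 was low throughout, with 0.0173 to 0.197 FPKM at day 8, against 1.30 to 1.56 FPKM at day 0 (-1.18 ± 0.17).

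WRKY11 and WRKY17 of subgroup IId are close relatives that limit resistance to bacteria. WRKY11 had 57.4, 71.3 and 71.4 FPKM at day 0, 76.5 and 74.9 FPKM at day 2, 88.4, 82.5 and 84.5 FPKM at day 4, and 52.7, 52.2 and 22.1 FPKM at day 8. It was called down at day 8 against day 4 (-1.09 ± 0.26, adjusted p = 0.0031), and without replicate 3 of day 8 the change was -0.69 and below 2-fold. WRKY17 had 10.99, 12.4 and 10.996 FPKM at day 0, 16.8 and 15.2 FPKM at day 2, 23.0, 17.2 and 23.8 FPKM at day 4, and 24.6, 35.5 and 8.12 FPKM at day 8. Replicate 3 was the lowest day 8 library for both genes, and for WRKY17 it lay below all other libraries.

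**Figure D4:**
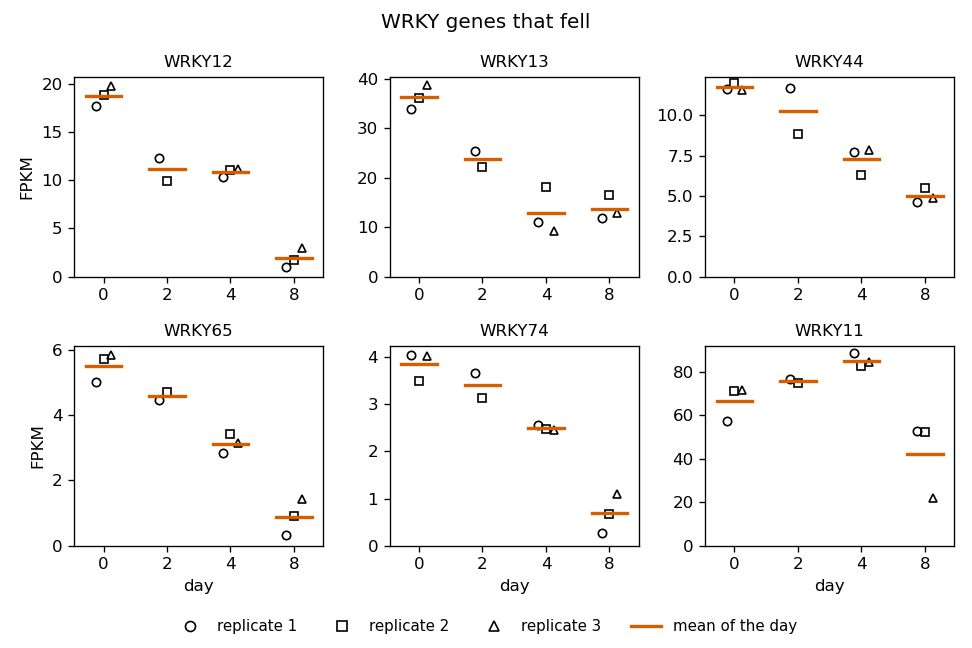
FPKM of 6 WRKY genes that fell, by day of dexamethasone treatment. Points are single libraries, with a symbol for each replicate number, and orange bars are the means of each day. WRKY12 falls to between 0.945 and 2.97 FPKM at day 8, WRKY13 is already low at day 4, and WRKY11 is highest at day 4 and lowest in replicate 3 of day 8.

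The flat members included several of the most highly expressed genes of the family. FPKM is a level per transcript length, so levels can be set side by side between genes. Averaged over the 11 libraries, WRKY21 had 87.1 FPKM, WRKY39 had 67.1, WRKY20 had 58.0, WRKY1 had 52.8, WRKY3 had 33.1, WRKY32 had 28.3, WRKY17 had 18.1 and WRKY7 had 15.9. WRKY21 was the highest member in 5 of the 8 libraries up to day 4 and WRKY11 in the other 3.

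Flat here means below the 2-fold minimum, and 16 of the 19 flat members had an adjusted p under 0.05 in at least 1 comparison. WRKY32 had 20.5 to 22.1 FPKM at day 0, 25.1 to 25.9 at day 2, 28.8 to 29.8 at day 4 and 34.5 to 37.7 at day 8, so that its libraries were ordered by day with no overlap (0.72 ± 0.07 at day 8 against day 0, adjusted p = 2.76e-06). WRKY35 of subgroup IIe had 8.74 to 10.04 FPKM at day 0, 7.08 and 7.63 at day 2, 4.65 to 4.71 at day 4 and 6.50 to 7.51 at day 8. It was lowest at day 4 (-0.88 ± 0.10 against day 0, adjusted p = 0.000348). WRKY14 of subgroup IIe had 7.01, 10.4 and 11.7 FPKM at day 8, against 21.9, 18.2 and 18.4 FPKM at day 0, a log2 change of -0.96 ± 0.16 (adjusted p = 0.000282) that passed 2-fold with a pseudocount of 0.1 FPKM (-1.03) and without replicate 2 of day 0 or replicate 2 or 3 of day 8. The 3 flat members with no adjusted p under 0.05 were WRKY20, WRKY1 and WRKY17. Without replicate 3 of day 8, limma called WRKY17 up at day 8 against day 0 (1.30, adjusted p = 4.96e-05).

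WRKY1 and WRKY20 of group I had the narrowest range of day means among the flat members. WRKY20 lay between 50.0 and 63.5 FPKM in all libraries, with a log2 change of -0.03 ± 0.08 at day 8 against day 0. WRKY1 lay between 46.8 and 63.4 FPKM, with a change of -0.01 ± 0.11. WRKY3 and WRKY4, related group I genes that act against necrotrophic fungi, differed at day 8. WRKY3 had 40.6, 32.7 and 38.9 FPKM at day 8, against 33.8, 32.8 and 34.0 FPKM at day 0 (0.15 ± 0.08, adjusted p = 0.133), and WRKY4 had 79.6, 68.99 and 66.1 FPKM at day 8, against 15.4, 16.4 and 15.6 FPKM at day 0 (2.11 ± 0.09, adjusted p = 1.37e-08). The difference between the 2 changes was not tested.

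The 9 members that were not tested were WRKY31, WRKY38, WRKY41, WRKY42, WRKY47, WRKY55, WRKY61, WRKY64 and WRKY67. No value among them exceeded 1.79 FPKM, which WRKY64 reached in replicate 2 of day 8. WRKY38, a group III relative of WRKY62, had 0.606, 1.13 and 0.525 FPKM at day 8 and at most 0.109 FPKM earlier. WRKY42 went the other way, with 0.0245 to 0.109 FPKM at day 8, against 0.504 to 0.621 FPKM at day 0. In group III, WRKY64 and WRKY63 lie 13518 bases apart on chromosome 1 next to WRKY67, and WRKY55 lies 919 bases from WRKY54 on chromosome 2. WRKY55 had 0.0445 to 0.156 FPKM at day 8, against 0.445 to 0.712 FPKM at day 0, while WRKY54 rose. Of 72 annotated WRKY loci, 10 were not analysed here.

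Replicates were not equally close at all days, and 1 library stood apart for many of the members. From day 0 to day 8, the pooled SD of the members on the log2 scale took the values 0.151, 0.375, 0.219 and 0.554, against 0.159, 0.230, 0.165 and 0.338 for all genes tested. Replicate 3 of day 8 was the lowest of its day for 32 of the 53 members (60.4%), against 26.1% of all genes, and for 20 of the 27 members that rose, against 58.9% of all genes that rose. Without this library 29 members rose at day 8 against day 0 and 7 fell. Over all genes, 2869 then rose in place of 2733, and 3260 fell in place of 2926. All 33 calls of day 8 against day 0 held when any 1 library was left out.

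Genes of wounding and touch responses were high in the day 8 libraries, as were many WRKY members. Of 13 such genes tested, 12 rose at day 8 against day 0 and 0 fell, with a median log2 change of 3.19, where 14.2% of all genes rose. Their summed level was 1732, 2723 and 1179 FPKM at day 8, and between 77.1 and 174 FPKM in the earlier libraries. TCH3, a calmodulin-like gene induced by touch, had 863, 1752 and 784 FPKM at day 8, against 5.95, 6.01 and 7.32 FPKM at day 0, and the zinc finger gene ZAT12 had 91.9, 168 and 49.2 FPKM, against 0.927, 3.42 and 1.64 FPKM. At day 4 against day 0, 2 of the 13 were called up and 0 down (median log2 change 0.43), where 1.59% of all genes rose. In that comparison TCH3 changed by 2.49 ± 0.42 and ZAT12 by 1.87 ± 0.44. At day 2, all 13 were higher in replicate 1 than in replicate 2, by a median log2 difference of 0.39. Of the WRKY members, 28 of 53 (52.8%) were higher in replicate 1, against 45.6% of all genes. Their median difference was 0.03, against -0.02 for all genes. Of the 27 members that rose at day 8, 15 were higher in replicate 1 (median 0.09), and of the 4 early risers 2 were (median 0.37). At day 8, replicate 3 was the lowest for 11 of the 13 wounding and touch genes (84.6%). It was the lowest for 20 of the 27 WRKY members that rose (74.1%), against 58.9% of all genes that rose. The part of handling, wounding or touch in the WRKY values was not tested.

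Defence genes that WRKY factors are known to serve or follow were counted in the same way. Of 15 genes of pattern-triggered immunity and MAP kinase signalling that were tested, 8 rose at day 8 against day 0, 0 fell and 7 were not called (median log2 change 1.54), where 14.2% of all genes rose and 15.2% fell. MPK3, which phosphorylates WRKY33, had 308, 186 and 148 FPKM at day 8, against 29.6, 32.7 and 31.4 FPKM at day 0. SIB1, a plastid and nuclear partner of WRKY33, was the only gene of this list that also rose at day 4 (1.32 ± 0.25 against day 0, adjusted p = 0.0087). The camalexin gene PAD3, a WRKY33 target, had 18.0, 45.7 and 13.3 FPKM at day 8, against 0.00909, 0.145 and 0.00818 FPKM at day 0 (4.47 ± 0.50).

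Of 14 salicylic acid defence genes tested, 8 rose at day 8 against day 0, 0 fell and 6 were not called (median 1.32), ICS1 among the last. Over all genes, 14.2% rose and 15.2% fell in this comparison. The regulators SARD1 and CBP60G rose by 3.82 ± 0.26 and 3.36 ± 0.18 on the log2 scale. PR1, the classic marker of salicylic acid responses, stayed at or below 0.624 FPKM in all libraries and was not tested. Of 9 senescence genes tested, 7 rose and 0 fell (median 3.62), among them the NAC regulators NAC092 (5.51 ± 0.20) and NAP (4.59 ± 0.23).

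Of 5 senescing leaf markers, 4 had a row in the table and all 4 rose. NAC092 and NAP are among these 4 and were already counted with the senescence genes, so the lists overlap. Their summed level was 364, 721 and 997 FPKM at day 8, and between 2.02 and 41.2 FPKM in the earlier libraries. This sum was highest in replicate 3 of day 8, the library in which most WRKY risers were lowest. The sum of the 9 senescence genes was instead highest in replicate 2 of day 8 (851, 1421 and 1369 FPKM). Among markers of other cell types, 1 of 6 for mature pollen had a row (ANX1, 0.703 to 1.34 FPKM at day 8, against 3.68 to 3.91 FPKM at day 0), 2 of 5 for tapetum (summed level 0.265 to 1.40 FPKM at day 8, against 0.453 to 0.737 FPKM at day 0), and 0 of 4 for root hairs. The part of senescing tissue in the WRKY values was not tested.

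Trichome and epidermal patterning genes, which work with WRKY44, were mixed. Of 7 tested, 1 rose and 3 fell at day 8 against day 0, where 14.2% of all genes rose and 15.2% fell. GL2, a homeobox gene of trichome differentiation, had 1.06, 0.298 and 1.23 FPKM at day 8, against 17.6, 16.8 and 18.0 FPKM at day 0 (-3.34 ± 0.21), and EGL3, a partner of TTG1, changed by -1.48 ± 0.15. TRY, an inhibitor of trichome formation, rose at day 4 (1.48 ± 0.14) and day 8 (1.90 ± 0.14) against day 0. TTG1, which acts upstream of WRKY44, changed by 0.71 ± 0.10, below 2-fold.

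W boxes (TTGACC or TTGACT, not the core TTGAC alone) were counted in the 300 bases before the start of each member. At least 1 was found for 27 of the 62 members (43.5%), against 32.3% of all 27443 protein-coding genes of the 5 chromosomes, and at least 2 for 16.1% of the members, against 7.91% of all genes. By course, 3 of 4 early risers, 10 of 23 day 8 risers, 2 of 7 fallers and 8 of 19 flat members had at least 1. WRKY33 and WRKY30, whose sequences are printed above, had the most. WRKY40, with the largest rise, had 0, as did WRKY18 and WRKY46. WRKY17 and WRKY32, both flat, had 2 each. These counts are a description of the letters in a fixed window and were not tested.

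**Figure D5:**
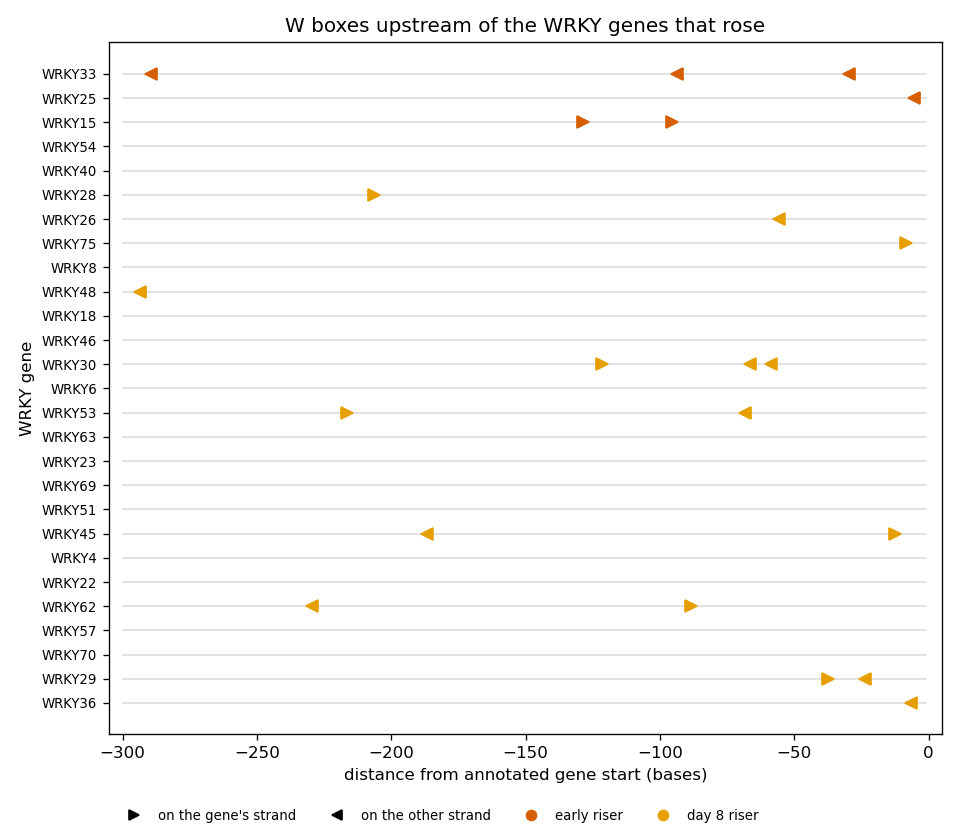
Positions of W boxes (TTGACC or TTGACT) in the 300 bases before the annotated start of the 27 WRKY genes that rose, as distance from the start in bases. Triangles point right for motifs on the strand of the gene and left for the other strand, and colours give the course. Of the 27 genes, 13 have at least 1 W box, and WRKY33 and WRKY30 have 3 each.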

How the data were processed

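RNA was measured in 11 libraries of total RNA, grouped by the day in their titles. As the submitters' processing notes state, STAR served for mapping to TAIR10 and RSEM version 1.2.22 for the estimates of expression. The authors deposited these as FPKM in 1 table, beside daily means and the raw and adjusted p-value of a test over the 4 days. Those means and deposited p-values were not used. The deposited FPKM columns share nearly 1 distribution: when each was sorted, values at the 17976 ranks averaging at least 1 FPKM lay a median of 0.0129% from the mean of their rank. The columns sum to between 734615 and 734624 FPKM, a difference in total RNA cannot be seen, and the depth of each library is unknown. The labels, the design text and the methods state different dexamethasone concentrations, and none is given here.

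Tests were run on genes that reached 1 FPKM in 2 libraries or more, with limma (version 3.58.1, R version 4.3.3) on log2(FPKM + 1), with all 11 libraries in 1 fit, 7 residual degrees of freedom, a variance trend on expression and Benjamini-Hochberg adjustment over all genes tested. The fit was checked on simulated data. Fold changes are on the log2(FPKM + 1) scale, which understates changes of low genes, and ± is the standard error of the fit. The 4 days share 1 estimate of the spread per gene. The replicates of day 8, the widest, thus also enter the ± and p of comparisons between earlier days. The design text calls the replicates biological.

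Members were described by name if they were called up by day 4, if they were among the 12 largest called rises or 10 largest called falls at day 8 against day 0 or the 6 largest called in each direction at day 8 against day 4, if they were among the 8 flat members with the highest mean, if they were not tested, or if they belonged to the sets WRKY18, WRKY40 and WRKY60, WRKY11 and WRKY17, WRKY3 and WRKY4, or WRKY12 and WRKY13. WRKY14, WRKY35, WRKY53 and WRKY70 were singled out after their values were seen. The members, the gene lists and the tests were chosen with earlier results of these data known. Alternatives were another pseudocount, other filters, median-ratio rescaling, library weights by day, fits of 2 days, no moderation, no fold minimum, an analysis of variance on FPKM, a replicate block and leaving out each library.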

Additional observations from a re-analysis of the deposited data

How the results depend on the processing

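The settings in this paragraph were run on the same 53 members and 19278 genes. With a pseudocount of 0.1 FPKM, 9 members rose at day 4 against day 0 in place of 4, and 487 of all genes in place of 307. At day 8 against day 4, 7 members fell in place of 4, and 2945 of all genes in place of 2111. Without moderation of the spread 2 members and 235 of all genes rose at day 4 against day 0. After median-ratio rescaling 2 members and 1485 of all genes fell at day 8 against day 4. With no fold minimum, 7 members rose and 3 fell at day 4 against day 0, where 938 of all genes rose and 795 fell. In that setting 13 members and 8680 of all genes fell at day 8 against day 0. Falls at day 4 against day 2 were 1 member (WRKY35) and 44 of all genes. Falls at day 8 against day 4 were 10 members and 8379 of all genes. The cause was not tested beyond what these settings change by construction.

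Leaving out 1 library at a time gave 34 to 37 members changed over the 4 days, 0 to 1 up at day 2 against day 0, 2 to 6 up and 1 to 1 down at day 4 against day 0, 27 to 29 up and 6 to 7 down at day 8 against day 0, 0 to 1 down at day 4 against day 2, and 26 to 27 up and 2 to 4 down at day 8 against day 4. The lowest count of rises at day 4 came without replicate 1 or 2 of day 0 or replicate 1 of day 4, the highest without replicate 2 or 3 of day 8, and the lowest count of falls at day 8 against day 4 without replicate 1 of day 8. The 1 fall at day 4 against day 2 came without replicate 2 of day 4. Counts over all genes moved as well. When 1 library was left out, 243 to 338 of all genes rose at day 4 against day 0. At day 8 against day 0, 2587 to 2869 of all genes rose and 2704 to 3260 fell. At day 8 against day 4, 2226 to 2567 rose and 1922 to 2447 fell. No call was reversed in any setting. Of 33 calls at day 8 against day 0, WRKY44 was lost under median-ratio rescaling. The other 32 held in every setting in which the gene was tested, but WRKY36, WRKY49 and WRKY62 were not tested with a minimum mean of 1 FPKM, and WRKY8, WRKY36, WRKY62, WRKY63 and WRKY75 were not tested with the minimum set on days 0, 2 and 4.

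Titles give the same replicate numbers at each day. Over 15 pairs of libraries with the same number, deviations from the day means correlated between -0.25 and 0.13. Pairs with different numbers were not compared, so these values cannot settle whether libraries were paired by number. With the replicate number as a block, 3 members rose and 1 fell at day 4 against day 0, and 27 rose and 6 fell at day 8 against day 0. Over all genes, 295 rose and 117 fell at day 4 against day 0, and 2732 rose and 2924 fell at day 8 against day 0. The analysis of variance on FPKM called 28 members over the 4 days. Since the depth of the libraries is unknown, no counting error can be given for members near 0 FPKM.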
